A study of Mus musculus with 18 samples.

Results

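The genes described are the 5 replication-dependent linker histone H1 genes of the mouse, Hist1h1a, Hist1h1b, Hist1h1c, Hist1h1d and Hist1h1e. They were found by symbol among the 14002 genes listed in any of 18 libraries, and all 5 had reads in all 18. The cells were RAW264.7, a mouse macrophage-like line, given 200 µM 4-thiouridine (4sU, which cells build into new RNA in place of uridine) for a set time before lysis, with no other treatment named (the micro sign is lost in the label and was read from context). From each of 9 lysates came a ribosome footprint library, made from RNase I-protected monosomal RNA, and an input library, made from fragmented cytoplasmic RNA. In experiment 2 the 3 labelling times were 20, 30 and 40 min, and in experiment 1 the 6 times were 0, 20, 40, 60, 90 and 120 min, with 1 lysate at each, so that only 20 and 40 min had a pair of lysates and the single unlabelled lysate belonged to experiment 1. Chemical conversion makes incorporated 4sU read as C in place of T, so a read with at least 1 T-to-C conversion is a converted read, and the converted share of a gene is the percent of its reads that are converted.

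H1 proteins bind the DNA that enters and leaves the nucleosome and help fold chromatin into denser fibres. The mRNAs of these 5 genes are made mainly in S phase, when DNA is copied, carry no poly(A) tail, and end in a stem-loop that the protein SLBP binds. That end sets both their translation and their rapid decay when replication stops. Neither library type was selected for poly(A), so such mRNAs could be counted in both.

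Depth was 29065324 to 87536081 reads per footprint library in experiment 2, against 11771175 to 23327760 in experiment 1. Input was sequenced to 26359243 to 48139330 reads in experiment 2, against 6230562 to 7933796 in experiment 1. Of 12 macrophage markers, 10 averaged above 1 CPM, edgeR's read count scaled to library size (their sum was 9941 to 13517 in footprints and 6779 to 8553 in input), whereas 0 of 16 markers of other cell types did (sum at most 1.34 in footprints and 0.835 in input). Among the defining markers, Emr1 was at 0 under that symbol in the first list, and Cd3e, Epcam, Col1a1 and Alb were at 0 in the second. Emr1 is the older symbol of Adgre1, which stands in the same list and had reads. The labels do not say whether the lysates are separate cultures, so a p-value here covers only the spread between these lysates, which may be technical. The footprint library of 60 min stood apart in the T positions per read of Hist1h1a, Hist1h1b, Hist1h1c and Hist1h1e, by an outlier check made on the members only. Over all genes its reads held 6.87 T positions each, the highest, against 6.29 to 6.71 in the other 8 footprint libraries. The footprint levels between experiments are given with and without this library, and other results that use it include it unless stated.

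All 5 genes are single-exon genes on chromosome 13 (GRCm38, GENCODE M21 annotation). In chromosome order Hist1h1b lies first and apart, followed by Hist1h1d, Hist1h1e, Hist1h1c and Hist1h1a. The coding sequence of Hist1h1d is at chr13:23555090-23555752 on the plus strand, that of Hist1h1e at chr13:23621841-23622497 on the minus strand, that of Hist1h1c at chr13:23738849-23739484 on the plus strand, that of Hist1h1a at chr13:23763717-23764355 on the plus strand and that of Hist1h1b at chr13:21779886-21780554 on the minus strand. With the stop codon they are 639 (Hist1h1c) to 672 bases (Hist1h1b) long, and 27.2 to 29.1% of their codons encode lysine, the basic residue for which H1 tails are known. Aligned coding sequences were most alike between Hist1h1d and Hist1h1e, at 83.9% identity, and least alike between Hist1h1a and Hist1h1c, at 68.3%. Of all 28-base windows of the coding sequence, 36.0% in Hist1h1d, 31.4% in Hist1h1e, 30.6% in Hist1h1c, 6.20% in Hist1h1b and 0.813% in Hist1h1a also occurred in another annotated gene, in most cases another H1. Reads of Hist1h1c, Hist1h1d and Hist1h1e could therefore be split or dropped in counting, whose rules the sources used here do not give, and their values are less certain on that account. The annotated transcripts also differ in length, at 741 bases in Hist1h1a, 743 in Hist1h1b, 1560 in Hist1h1c, 1930 in Hist1h1e and 7425 in Hist1h1d. Outside its coding sequence, the annotated Hist1h1e gene overlaps Hist1h2be and Gm11398 on the same strand. What this adds to the counts was not tested.

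The stem-loop is shown because it is the shared mark of replication-dependent histone mRNAs. The same 16 letters were found behind the stop codon of 3 members, 25 bases behind it in Hist1h1c, 32 in Hist1h1d and 41 in Hist1h1e (chr13:23739512-23739527, chr13:23555787-23555802 and chr13:23621782-23621797, read on each gene's own strand). The annotated transcript of Hist1h1b ends at its stop codon, so no bases behind it could be searched. That of Hist1h1a ends close behind its stop codon, at chr13:23764406, and held no match up to there. Neither was searched beyond its end.
Hist1h1c, Hist1h1d and Hist1h1e stem-loop: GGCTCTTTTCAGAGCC

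The promoters are shown because they hold the elements that histone H1 promoters are known for. Each run below covers the 130 bases up to the start site in RefSeq (GRCm38.p6, where the genes are named H1f1, H1f5, H1f2, H1f3 and H1f4), on the gene's own strand. Capitals mark the H1 box AAACACA, the CCAAT box, the TATA box TATAAA and the GC box GGGCGG, or the same box on the other strand (ATTGG for CCAAT and CCGCCC for GGGCGG).
Hist1h1a, chr13:23763538-23763667, plus strand: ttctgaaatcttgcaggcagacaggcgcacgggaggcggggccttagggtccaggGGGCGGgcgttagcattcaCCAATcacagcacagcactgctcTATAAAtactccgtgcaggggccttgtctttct
Hist1h1b, chr13:21780626-21780755, minus strand: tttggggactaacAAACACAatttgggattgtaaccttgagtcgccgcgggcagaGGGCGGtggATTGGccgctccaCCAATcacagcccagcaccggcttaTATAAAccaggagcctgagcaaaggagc
Hist1h1c, chr13:23738677-23738806, plus strand: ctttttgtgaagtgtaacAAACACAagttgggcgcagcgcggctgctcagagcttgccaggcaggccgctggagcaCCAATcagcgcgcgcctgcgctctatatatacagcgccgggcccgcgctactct
Hist1h1d, chr13:23554902-23555031, plus strand: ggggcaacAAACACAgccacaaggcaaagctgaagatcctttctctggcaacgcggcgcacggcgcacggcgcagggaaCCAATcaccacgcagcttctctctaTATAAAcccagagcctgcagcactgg
Hist1h1e, chr13:23622559-23622688, minus strand: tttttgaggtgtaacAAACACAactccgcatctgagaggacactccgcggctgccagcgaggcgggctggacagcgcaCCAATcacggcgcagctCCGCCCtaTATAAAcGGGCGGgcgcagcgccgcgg

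All 5 promoters held CCAAT at 51 to 56 bases before the start site, and 4 of 5 held the H1 box at 112 to 122 bases before it. No match to the H1 box was found in the window of Hist1h1a, which runs from 250 bases before to 50 after the start site. TATAAA was found in 4 of 5 (not in Hist1h1c) and GGGCGG in 3 of 5 (Hist1h1a, Hist1h1b and Hist1h1e). Over the 32851 promoter windows of the same length in the table, searched on both strands, the H1 box letters occurred in 7.18%, CCAAT in 37.4%, TATAAA in 13.6% and GGGCGG in 35.7%.

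Together the 5 genes took 0.369 to 0.590% of the reads of a footprint library and 0.268 to 0.458% of those of an input library. Per kilobase of coding sequence, after TMM scaling (a correction of library size in edgeR), the mean level in footprints was highest for Hist1h1b, at 2336 ± 368 CPM, followed by Hist1h1d, at 1992 ± 317, Hist1h1a, at 1459 ± 141, Hist1h1e, at 1085 ± 138, and Hist1h1c, at 839 ± 106 (SD, n = 9). In input the order was Hist1h1b, at 1276 ± 222, Hist1h1a, at 1256 ± 318, Hist1h1d, at 1123 ± 312, Hist1h1e, at 674 ± 120, and Hist1h1c, at 554 ± 138 CPM per kilobase (SD, n = 9). In input Hist1h1b, Hist1h1a and Hist1h1d differed from each other by less than their spread over libraries. Hist1h1e and Hist1h1c differed by about their spread, though Hist1h1e was above Hist1h1c within every input library. These levels are per coding length because the region counted is not given, and input reads from outside the coding sequence would raise the input value alone.

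**Figure D1:**
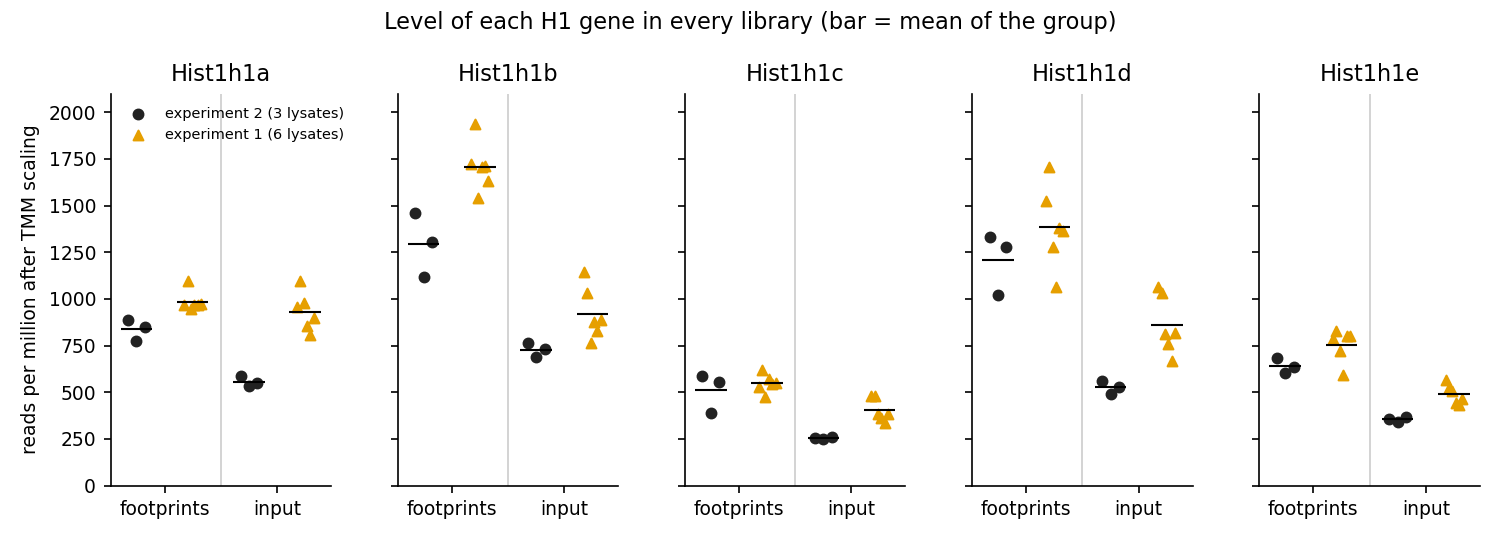
Level of each H1 gene in all 18 libraries, in CPM after TMM scaling, with footprints left of input and experiment 2 (circles, 3 lysates) left of experiment 1 (triangles, 6 lysates). Bars are group means, and the input mean of experiment 2 lies below that of experiment 1 for each gene.

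The first comparison asked how heavily the H1 mRNAs were covered by ribosomes relative to their abundance. Hist1h1b, Hist1h1c, Hist1h1d and Hist1h1e were higher in footprints than in input, by 1.52 to 1.83 times, and Hist1h1a was not called. Hist1h1b had 1118 to 1937 CPM (median 1631) in footprints and 687 to 1144 (median 829.4) in input. Hist1h1d had 1019 to 1708 (median 1332) in footprints and 490.3 to 1064 (median 760.0) in input. For both genes the footprint value was above the input value of the same lysate in 9 of 9 lysates. The log2 ratio of footprints over input was 0.87 for Hist1h1b (SE 0.0840, adjusted p = 1.62e-07), the highest of the 5, and 0.84 for Hist1h1d (SE 0.123, adjusted p = 1.5e-05; edgeR quasi-likelihood test, 10592 genes).

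Hist1h1e had 594 to 826 CPM (median 719) in footprints and 341 to 565 (median 444) in input, and its log2 ratio was 0.69 (SE 0.0939, adjusted p = 7.5e-06). Hist1h1c, the least abundant of the 5, had 391 to 621 (median 548) in footprints and 251 to 479 (median 362) in input, with a log2 ratio of 0.61 (SE 0.115, adjusted p = 0.000197). Each was higher in footprints in 9 of 9 lysates. Hist1h1a had 774 to 1096 CPM (median 965) in footprints and 532 to 1096 (median 854) in input. Over all libraries its footprint and input ranges overlapped, as did those of Hist1h1b, Hist1h1c and Hist1h1d. The log2 ratio of Hist1h1a was 0.23 (SE 0.125, adjusted p = 0.109), with footprints above input in 8 of 9 lysates. With the lysate as a block, which pairs the materials, the ratio of Hist1h1a was 0.25 with an adjusted p of 0.014, so that its call depends on the fit. In all, 4 of 5 members were called higher, where 35.3% of all genes tested were (40.3% were lower), and the median log2 ratio of the 5 was 0.69, against -0.04 over all genes.

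Within a lysate the 5 genes could be compared with each other without a scaling factor, and 6 of the 10 pairs differed (exact two-sided sign-flip tests over 9 lysates, adjusted over the 10 pairs). Hist1h1a was below each of the other 4 in 9 of 9 lysates, by 0.37 (Hist1h1c), 0.44 (Hist1h1e), 0.61 (Hist1h1d) and 0.62 (Hist1h1b) on the log2 scale, each with the smallest p the design allows, 0.00391 (adjusted p = 0.00977). Hist1h1d was above Hist1h1e in 8 of 9 lysates, by 0.16 ± 0.16, and above Hist1h1c in 8 of 9, by 0.23 ± 0.19 (SD, adjusted p = 0.0195 for both, exact test). Hist1h1b and Hist1h1d differed by 0.01 ± 0.32 (SD, n = 9 lysates, exact p = 0.902). In experiment 1 alone neither difference of Hist1h1d was called (adjusted p = 0.0781 against Hist1h1c and 0.104 against Hist1h1e, exact test over 6 lysates). There Hist1h1b was called above Hist1h1d, by 0.21, above Hist1h1e, by 0.28, and above Hist1h1c, by 0.45 (adjusted p = 0.0446 for each, exact test).

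**Figure D2:**
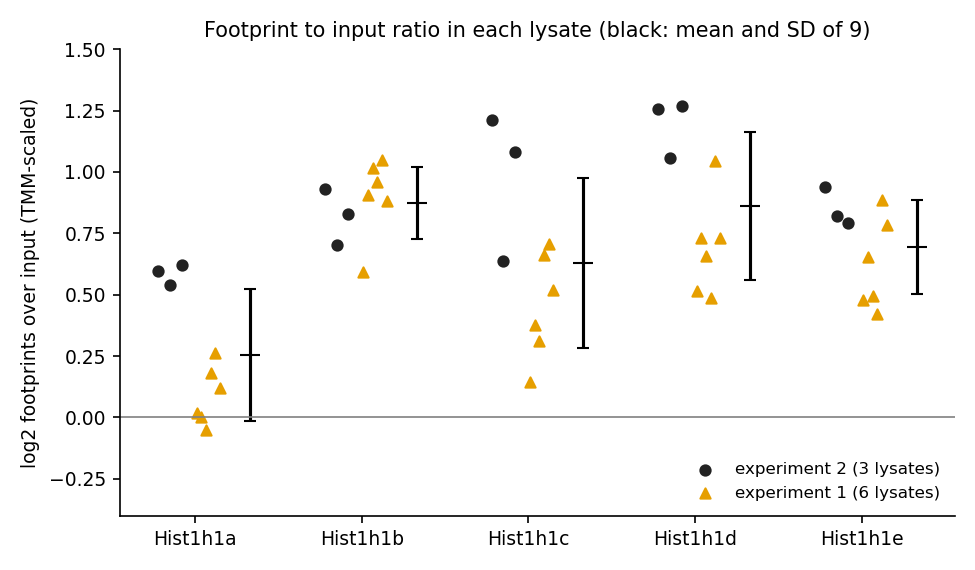
The log2 ratio of footprints over input of each H1 gene in every lysate (TMM-scaled CPM), with experiment 2 (circles) left of experiment 1 (triangles) and the mean ± SD of the 9 lysates in black. The points of Hist1h1a run from -0.05 to 0.62 and lie lowest of the 5, and those of Hist1h1a, Hist1h1c and Hist1h1d are higher in experiment 2 than in most lysates of experiment 1.

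The second comparison asked how fast the H1 mRNAs were labelled relative to other mRNAs. All 5 were labelled above the median gene in input, by 1.06 to 1.89 on the scale of log2 odds of conversion. To obtain it, the log2 odds that a read of the gene is converted was taken and the median over genes of that library was subtracted, and it was tested against 0 by limma over the 8 labelled input libraries. Hist1h1b stood at 1.89 (SE 0.186, adjusted p = 4.73e-06), Hist1h1a at 1.66 (SE 0.189, adjusted p = 1.53e-05), Hist1h1d at 1.45 (SE 0.172, adjusted p = 2.05e-05), Hist1h1e at 1.21 (SE 0.192, adjusted p = 0.00018) and Hist1h1c at 1.06 (SE 0.189, adjusted p = 0.000416). Each was above 0 in 8 of 8 libraries. These means pool the labelling times, and the lead over the median gene was largest at the shortest time: Hist1h1b stood at 2.55, 2.05 and 1.83 at 20, 30 and 40 min in experiment 2, and at 2.62, 1.72, 1.54, 1.52 and 1.30 at 20, 40, 60, 90 and 120 min in experiment 1. Hist1h1c stood at 1.85, 1.40 and 1.16 in experiment 2, and at 1.49, 0.86, 0.82, 0.59 and 0.35 in experiment 1, lowest at the longest time in both. Counting only reads with at least 2 conversions, Hist1h1c (0.13, adjusted p = 0.769), Hist1h1e (0.26, adjusted p = 0.486) and Hist1h1d (0.60, adjusted p = 0.0912) were not called. The count of 5 of 5 compares with 33.5% of the 8276 genes tested that were called higher (34% were called lower).

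How many T positions a read held, each of which can be converted, differed between the members. H1 coding sequences are poor in T, which makes up 14.3% of bases in Hist1h1b, 14.2% in Hist1h1a, 11.1% in Hist1h1d, 10.2% in Hist1h1c and 8.33% in Hist1h1e, against a median of 23.8% over 58797 annotated whole transcripts. Input reads held on average 4.46 T positions in Hist1h1a, 4.31 in Hist1h1b, 2.86 in Hist1h1d, 2.47 in Hist1h1c and 2.32 in Hist1h1e, against 6.61 over all genes (means of 9 libraries). In Hist1h1c, 14.4 to 16.8% of input reads held no T at all and could not be converted, against 0.457 to 0.816% in Hist1h1a. A coding window of 28 bases holds on average 4.00 T in Hist1h1a, 3.89 in Hist1h1b, 3.07 in Hist1h1d, 2.71 in Hist1h1c and 2.29 in Hist1h1e, the same order as in the input reads.

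When the odds were taken per T position in place of per read, all 5 members stood further above the median gene and their order changed. Hist1h1e was then highest, at 2.64, followed by Hist1h1d at 2.57, Hist1h1b at 2.47, Hist1h1c at 2.40 and Hist1h1a at 2.17 (limma, adjusted p = 3.49e-07 for Hist1h1d to 4.14e-06 for Hist1h1a). The members called higher were 5 of 5, against 33.2% of all genes. By reads, 10 of 10 pairs of members differed, with Hist1h1b first and Hist1h1c last (exact sign-flip tests over 8 lysates, adjusted p = 0.00977 to 0.0391). Per T position 7 of 10 did, and Hist1h1a, which by reads was above Hist1h1c, Hist1h1d and Hist1h1e in 8 of 8 libraries, was below Hist1h1d and Hist1h1e in 8 of 8 and below Hist1h1c in 7 of 8. The pairs that did not differ per T position were Hist1h1b and Hist1h1c, at 0.08 ± 0.15 (SD, adjusted p = 0.203, exact test over 8 lysates), Hist1h1b and Hist1h1d, at -0.09 ± 0.12 (adjusted p = 0.0781, exact), and Hist1h1d and Hist1h1e, at -0.07 ± 0.11 (adjusted p = 0.139, exact).

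**Figure D3:**
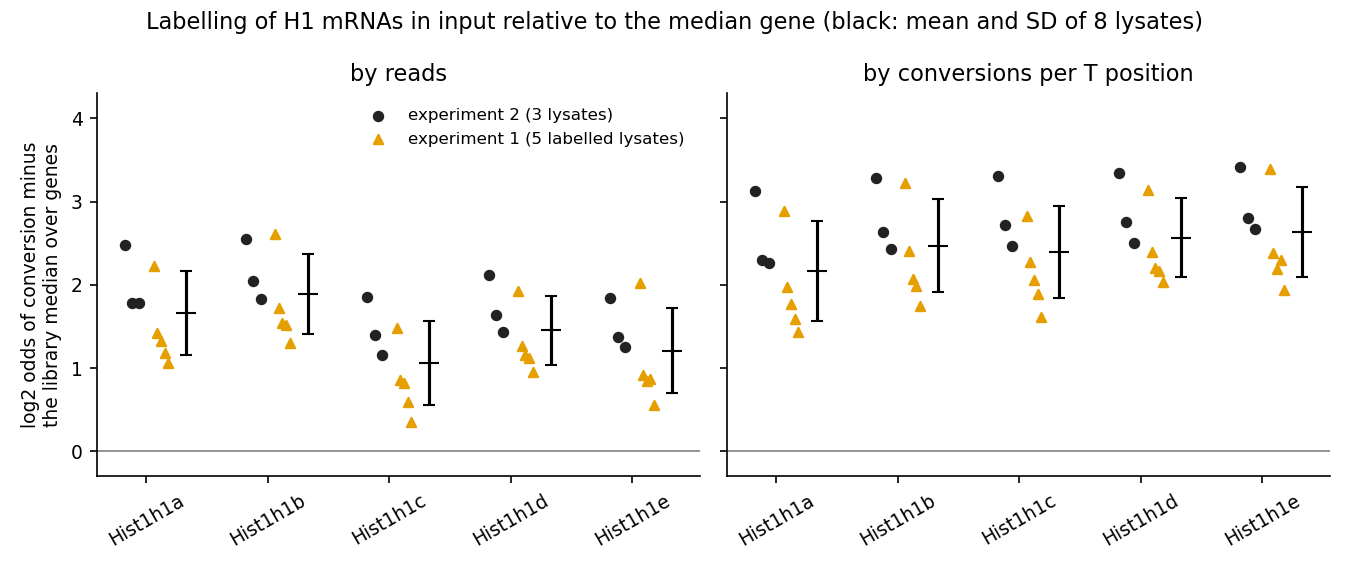
Labelling of the 5 H1 mRNAs in the 8 labelled input libraries, as the log2 odds of conversion above the median gene of the library, by reads (left) and per T position (right), with experiment 2 (circles) left of experiment 1 (triangles) and the mean ± SD in black. By reads the means run from 1.06 (Hist1h1c) to 1.89 (Hist1h1b), and per T position from 2.17 (Hist1h1a) to 2.64 (Hist1h1e).

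The converted share itself showed how labelling built up. In the unlabelled lysate it was 0.0617% (Hist1h1e) to 0.350% (Hist1h1c) in footprints and 0.0743% (Hist1h1e) to 0.292% (Hist1h1c) in input, against 0.298% and 0.289% over all reads. These low shares rest on few reads, 11 of 17837 for Hist1h1e in footprints and 3 of 4039 in input (95% Wilson intervals 0.0344 to 0.110% and 0.0253 to 0.218%). Hist1h1c stood at 2.53 times the share expected from the T positions of its reads in unlabelled footprints, and at 2.68 times in unlabelled input, the highest of the 5 in both. These rest on 42 of 12003 reads in footprints (95% Wilson interval 0.259 to 0.473%, expected 0.138%). In input they rest on 10 of 3419 (0.159 to 0.538%, expected 0.109%).

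In footprints of experiment 1 the converted share of Hist1h1b was 2.24% at 20 min, 4.81% at 40 min, 8.44% at 60 min, 11.2% at 90 min and 15.2% at 120 min. In input of the same lysates it was 4.37%, 6.51%, 10.8%, 14.4% and 21.3%. Hist1h1a reached 14.9% in footprints and 18.7% in input at 120 min, Hist1h1d 15.0% and 17.7%, Hist1h1e 11.2% and 13.99%, and Hist1h1c 12.5% and 12.3%. Over all genes the share at 120 min was 5.54% in footprints and 8.07% in input. The footprint share was below the input share for Hist1h1a, Hist1h1b, Hist1h1d and Hist1h1e at every labelling time, whereas for Hist1h1c it was above it at 40, 60, 90 and 120 min of experiment 1 and below it in 3 of 3 lysates of experiment 2.

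**Figure D4:**
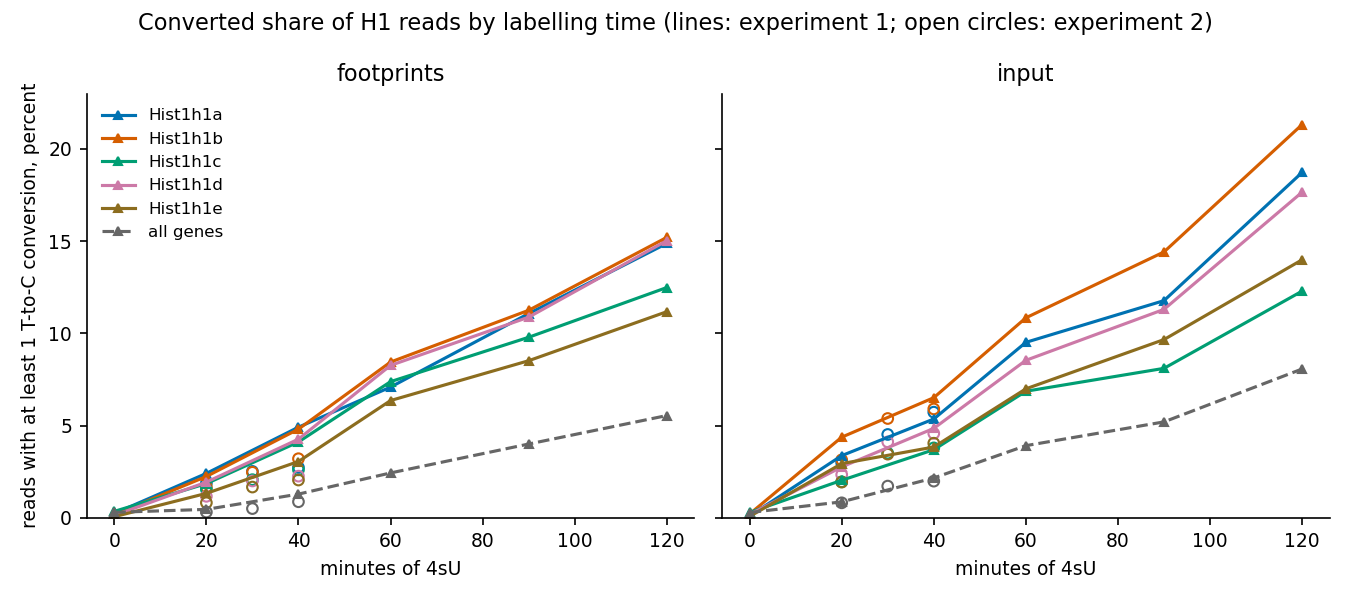
Percent of reads with at least 1 T-to-C conversion against minutes of 4sU in footprints (left) and input (right), for each H1 gene and for all genes (dashed), with experiment 2 as open circles and experiment 1 as triangles joined by lines. In footprints at 120 min the 5 genes lie between 11.2% and 15.2% and in input between 12.3% and 21.3%, above all genes at 5.54% and 8.07%.

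In experiment 2 the summed converted share of the 5 genes in footprints was 1.44% at 20 min, 2.19% at 30 min and 2.62% at 40 min, and in input 2.64%, 4.42% and 5.07%. At the same 20 and 40 min in experiment 1 it was 2.03% and 4.37% in footprints, and 3.26% and 5.08% in input. The input shares at 40 min thus lay close together in the 2 experiments while the footprint shares did not. The same held over all genes at 40 min. Their input share was 1.99% in experiment 2 and 2.16% in experiment 1, and their footprint share 0.872% and 1.29%.

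The delay between input and footprints was read from experiment 1 as the labelling time minus the time at which the input share, joined by straight lines and corrected for the unlabelled lysate, equalled the footprint share. For the 5 genes summed it was 8.03 min at 20 min of labelling, 7.92 at 40, 6.40 at 60, 12.6 at 90 and 17.6 at 120 min, against 14.5, 13.6, 16.99, 28.1 and 26.5 min over all genes. Counted per T position the summed delay was 7.87, 9.43, 13.7, 16.2 and 19.1 min, against 14.3, 13.1, 17.97, 30.6 and 26.4 min over all genes. The summed delay of the H1 genes was shorter than that over all genes at each of the 5 times by both counts. So were the delays of Hist1h1a and Hist1h1d, whereas Hist1h1b by both counts and Hist1h1e by reads were longer at some times. By reads the delay at 40 min was 15.7 min for Hist1h1b and 17.2 min for Hist1h1e, longer than over all genes. Per T position Hist1h1b was at 16.4, 19.3 and 31.1 min at 40, 60 and 90 min, also longer. By reads Hist1h1c was at -2.29, -11.2 and -11.7 min at 40, 60 and 90 min, since its footprint share lay above its input share, and at 120 min no value could be read. Each value comes from 1 lysate, so it carries no replicate error, and the unlabelled lysate is shared by all. The delays at 60 min rest on the footprint library that stood apart in T positions.

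A further comparison tested whether newly made H1 mRNA was a smaller part of footprints than of input. It was for Hist1h1b, with a log2 odds ratio of -0.73 (SE 0.175, adjusted p = 0.000191), Hist1h1e, at -0.69 (SE 0.187, adjusted p = 0.00104), Hist1h1a, at -0.53 (SE 0.179, adjusted p = 0.00795), and Hist1h1d, at -0.53 (SE 0.178, adjusted p = 0.00773; edgeR over 16 labelled libraries). Each of these genes was lower in 8 of 8 lysates. Hist1h1c stood at -0.15 (SE 0.192, adjusted p = 0.465), lower in 4 of 8. The 4 of 5 members called lower compare with 59.4% of all genes, whose median was -0.79. Hist1h1a was not called without the 40 min lysate of experiment 2 (-0.45, adjusted p = 0.054), and neither Hist1h1a nor Hist1h1d was called in experiment 1 alone (-0.32 and -0.22, adjusted p = 0.0605 and 0.213). With limma on the log2 odds neither was called at the same effect of -0.53 (adjusted p = 0.0562 for Hist1h1a and 0.0659 for Hist1h1d), and by reads with at least 2 conversions Hist1h1d was not (-0.76, adjusted p = 0.118). In experiment 2 alone Hist1h1c was called lower (-0.57, adjusted p = 0.0337).

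By lysate, Hist1h1b ran from -1.17 to -0.92 in experiment 2 and from -0.996 to -0.40 in experiment 1. Hist1h1d ran from -1.07 to -1.02 in experiment 2 and from -0.53 to -0.05 in experiment 1. Hist1h1c ran from -0.78 to -0.35 in experiment 2 and from -0.14 to 0.30 in experiment 1. All 5 genes and the median gene, at -1.27 ± 0.33 in experiment 2 (SD, n = 3) and -0.57 ± 0.24 in experiment 1 (SD, n = 5), were more negative in experiment 2, which held only times up to 40 min. Per T position the log2 odds ratio of Hist1h1c was -0.43 (SE 0.225, adjusted p = 0.0794), further from 0 than by reads. Footprint reads of Hist1h1c held 2.63 to 3.94 T positions each and input reads 2.37 to 2.58, a gap that enters the share by reads and not the odds per T position. The 3.94 came from the 60 min library, which stood apart, and the next highest was 3.14.

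Set against the median gene of the same lysate, the 5 genes stood at 0.68 (Hist1h1c, SE 0.144), 0.30 (Hist1h1d, SE 0.152), 0.30 (Hist1h1a, SE 0.159), 0.14 (Hist1h1e, SE 0.165) and 0.10 (Hist1h1b, SE 0.153) on the log2 odds scale. None of the 5 was called by limma (adjusted p = 0.0544 for Hist1h1c and 0.318 or more for the others), where 1.04% of all genes were. At an unadjusted p under 0.05 stood 1 of 5 members and 18.7% of all genes. Hist1h1c was called with a minimum of 200 reads (0.69, adjusted p = 0.0476) or a pseudocount of 2 (0.65, adjusted p = 0.0172), and not per T position (0.48, adjusted p = 0.145).

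**Figure D5:**
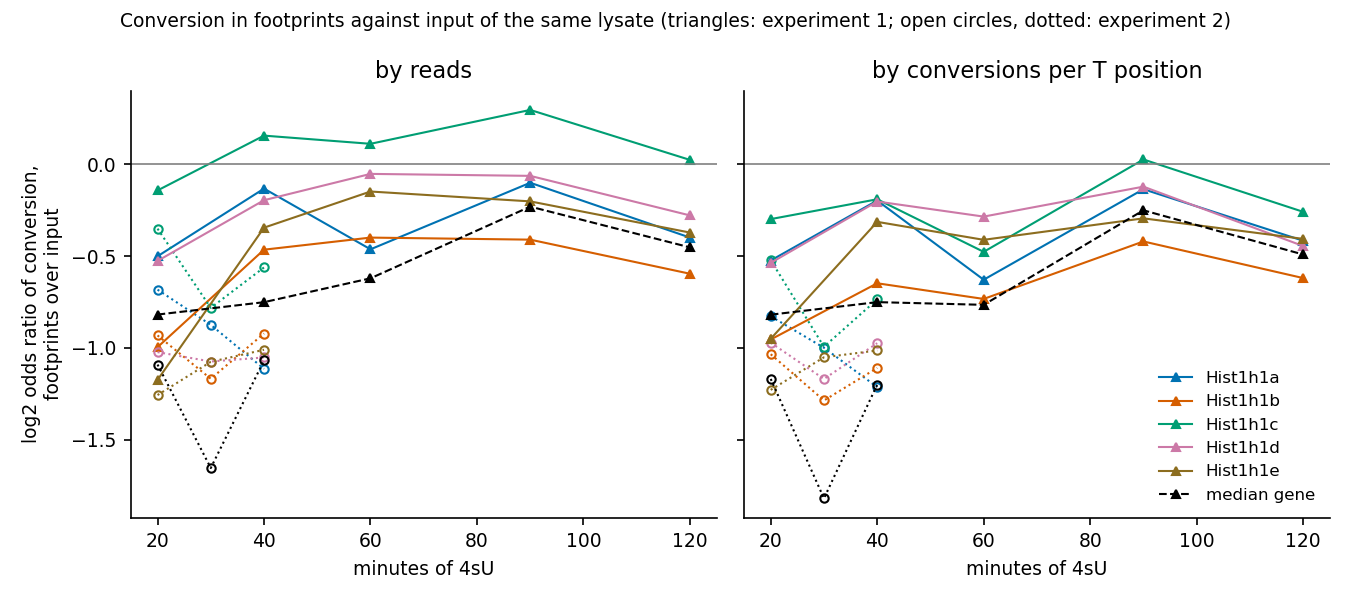
Log2 odds ratio of conversion, footprints over input of the same lysate, against minutes of 4sU, by reads (left) and per T position (right), for the 5 H1 genes and the median gene (black, dashed in experiment 1). Open circles are experiment 2 and triangles experiment 1, and Hist1h1c lies highest in experiment 1 by reads, from -0.14 to 0.30.

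The 2 experiments differed in depth, in their labelling times and in the level of H1 mRNA. In input all 5 members were lower in experiment 2 than in experiment 1, with hours of labelling kept in the fit (edgeR quasi-likelihood test). Hist1h1d had 557.9, 490.3 and 530.4 CPM at 20, 30 and 40 min in experiment 2, against 669 to 1064 (median 815) in experiment 1, and its log2 difference was -0.75 (SE 0.109, adjusted p = 0.000463). Hist1h1a had 589, 532 and 552 in experiment 2, against 804 to 1096 (median 927) in experiment 1, a difference of -0.75 (SE 0.0819, adjusted p = 0.00013). The groups overlapped for neither gene, and how many of all genes showed no overlap was not counted. Hist1h1c differed by -0.69 (adjusted p = 0.000299), Hist1h1e by -0.48 (adjusted p = 0.000532) and Hist1h1b by -0.36 (adjusted p = 0.0164, not called without the 0 min lysate of experiment 1 or the 30 min lysate of experiment 2, at 0.0803 and 0.0718). In this comparison 25.7% of all genes were called lower.

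In footprints 1 of 5 members was called lower in experiment 2, where 6.16% of all genes were. Hist1h1b had 1458, 1118 and 1305 CPM in experiment 2, against 1538 to 1937 (median 1710) in experiment 1, a log2 difference of -0.42 (SE 0.0973, adjusted p = 0.0119, edgeR). The others differed by -0.25 (Hist1h1a, adjusted p = 0.0503), -0.24 (Hist1h1d, adjusted p = 0.247), -0.23 (Hist1h1e, adjusted p = 0.162) and -0.10 (Hist1h1c, adjusted p = 0.637). Without the 60 min lysate of experiment 1, whose footprint library stood apart in T positions, 3 were called, Hist1h1a (-0.25, adjusted p = 0.0243) and Hist1h1e (-0.28, adjusted p = 0.0114) besides Hist1h1b.

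The ratio of footprints over input was higher in experiment 2 for 3 of 5 members, where 12.7% of all genes were called higher. The log2 ratio of Hist1h1a was 0.54, 0.60 and 0.62 in the lysates of experiment 2, against -0.05 to 0.26 (median 0.07) in experiment 1. That of Hist1h1d was 1.06 to 1.27 in experiment 2, against 0.49 to 1.05 in experiment 1. The groups overlapped for neither gene, and how many of all genes showed no overlap was not counted. For Hist1h1a the test of the difference between the experiments gave 0.50 (SE 0.111, adjusted p = 0.00464, edgeR). Hist1h1c differed by 0.55 (SE 0.164, adjusted p = 0.021), Hist1h1d by 0.50 (SE 0.173, adjusted p = 0.0397), Hist1h1e by 0.23 (SE 0.133, adjusted p = 0.224) and Hist1h1b by -0.07 (SE 0.141, adjusted p = 0.771). Leaving out the 0 or 120 min lysate of experiment 1 or the 20 or 40 min lysate of experiment 2 left only Hist1h1a called, and Hist1h1d lost its call also without the 20 or 40 min lysate of experiment 1 or the 30 min lysate of experiment 2 (adjusted p = 0.0532 to 0.158 for Hist1h1c and Hist1h1d where not called). With DESeq2 size factors in the same fit Hist1h1d was not called (0.47, adjusted p = 0.055, edgeR). Experiment, depth and lysate set cannot be told apart here.

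Across labelling time the levels of the 5 genes gave no called trend. The slopes ran from -0.09 to 0.03 log2 units per hour in input (SE 0.118 to 0.185) and from -0.08 to 0.04 in footprints (SE 0.0791 to 0.115), and 0 of 5 were called in either, where 6.24% and 20.4% of all genes were (edgeR quasi-likelihood test). The change of the ratio of footprints over input per hour ran from -0.0047 to 0.12 (SE 0.172 to 0.236), and 0 of 5 members and 0 of 10592 genes were called, while 0 members and 255 genes had an unadjusted p under 0.05 and DESeq2's Wald test called 9 genes. The SEs are as large as the values, so that a change of this size over an hour was not detectable. These fits held no term for experiment, so the slopes also take in the step between the experiments described above. In experiment 1 the summed input level of the 5 genes was 4207 CPM at 0 min, 4163 at 20 and 3443 at 40. It was 3297 at 60, 3070 at 90 and 3451 at 120 min. With the experiment as a replicate block 0 of 5 were called in either material or in the ratio.

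Among 8831 genes with at least 100 reads per library on average, the likeness of each gene's input level to the mean of the 5 members was taken over the 9 input libraries. Pearson's r was 0.995 for Hist1h2bm, 0.993 for Hist2h2bb, 0.993 for Rbm15b, which acts in RNA methylation, 0.991 for Hist2h2ab, 0.991 for Hist1h4f and 0.988 for Hist4h4, and 32 of the 50 most similar genes had symbols beginning with Hist, as had 49 (0.555%) of the 8831. The 9 points share the step between the experiments described above. By relative labelling over the 8 labelled input libraries (8075 genes) the most similar were Tdg, Ccdc93, Cox4i1, Tln2, Adcy7 and Phgdh (r = 0.993 to 0.995), and 3 of the 50 had such symbols, as had 49 (0.607%) of the 8075.

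Replication-dependent core histones, which form the nucleosome that H1 binds, are given for comparison. Many of them are near-identical copies of each other, so reads could be split between them and single values are uncertain. Of 51 tested, 38 were higher and 1 lower in footprints than in input (median 1.08), beside 35.3% and 40.3% of all genes, with Hist1h4n at 4.303 and Hist1h2bc at 2.58. All 50 tested were labelled above the median gene in input (median 1.95, against 1.45 for the 5 H1 genes), beside 33.5% of all genes called above it. In footprints against input 19 of 50 had fewer converted reads (median -0.43), beside 4 of 5 H1 genes (median -0.53) and 59.4% of all genes (median -0.79). In experiment 2, 37 of 51 were lower in footprints (median -0.65), where 6.16% of all genes were, and 48 of 50 lower in input (median -0.88), where 25.7% were.

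Of the H1 genes outside the replication-dependent group, H1f0, which is made in resting and differentiated cells with a polyadenylated mRNA, had 92.2 to 150.4 CPM in footprints and 55.2 to 98.4 in input. It was higher in footprints (0.73, adjusted p = 1.12e-06, edgeR), labelled above the median gene (1.01, adjusted p = 0.00106) and at 0.13 in input of experiment 2 over experiment 1 (adjusted p = 0.252). H1fx and the testis gene Hist1h1t never exceeded 1.34 CPM and the oocyte gene H1foo had at most 6 reads in a library. H1fx and Hist1h1t, with at most 12 and 8 reads in an input library, passed the low-count filter of this fit but not that of input alone, so no count of calls is given for these genes.

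The proteins that handle H1 or compete with it for chromatin were mostly above input in footprints, with 14 of 16 higher and 1 lower (median 0.86), where 35.3% and 40.3% of all genes were. They include Anp32b, an acidic histone chaperone, at 3.59, Nap1l1, another histone chaperone, at 1.72, Hmgb2, which competes with H1 for linker DNA, at 1.56, and Cbx3, a heterochromatin protein, at 1.03 (edgeR, adjusted p = 2.85e-10 for Hmgb2 to 1.06e-07 for Anp32b). In labelling, 2 of 14 were above and 11 of 14 below the median gene (median -0.88), where 33.5% and 34% of all genes were. Nap1l1 stood at -0.95 and Hmgb2 at 0.43 there.

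Among 21 genes of histone mRNA processing and decay, 8 were higher and 8 lower in footprints, close to the shares over all genes (35.3% and 40.3%). Casp8ap2 and Npat, large proteins of the histone locus body where histone genes are transcribed, stood at -2.51 and -1.20, and Snrpd3, a core protein of splicing particles, at 2.83. Casp8ap2 and Npat were labelled above the median gene (1.81 and 1.64), as were 7 of 20 in that list, with 8 below, again close to the shares over all genes (33.5% and 34%). Of 24 S phase genes, 17 were higher and 1 lower in footprints, beside the same 35.3% and 40.3% of all genes (Rrm2, a subunit of ribonucleotide reductase, at 1.69, Asf1b, a histone chaperone, at 1.02 and Mcm4, part of the replicative helicase, at 0.97), and 8 were above and 5 below the median gene in labelling (median 0.11), beside 33.5% and 34%. Rrm2 stood at 0.97 in labelling and Mcm4 at 0.15.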

How the data were processed

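The deposited files hold, per the file headers, raw read counts per gene and library, split by T positions in a read (0 to 20) and T-to-C conversions (0 to 3). That reading of the headings was inferred from the headings and values. Alignment was with Bowtie 0.12.8 to mm10, per the submitters' processing notes. The counting program, annotation, region counted and handling of reads that match several genes were not given in these sources. About 10% of a lysate became the input, per the labels' protocols, rRNA was depleted and fragments of 25 to 35 nt were kept.

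Counts were summed per gene, and converted reads held at least 1 conversion. Levels were fitted with edgeR 4.0.16 in R 4.3.3 (quasi-likelihood, TMM, filterByExpr), with labelling time as a factor for footprints over input, hours as a number for slopes, and experiment plus hours between experiments. Conversion in footprints over input used edgeR with a converted and an unconverted column per library. Relative labelling, and conversion relative to the median gene, used limma 3.58.1 on log2 odds with a pseudocount of 0.5. A gene entered the conversion fits if it averaged 50 or more reads a library and had 50 or more converted reads in all. All fits ran over all genes, two-sided p-values were adjusted by Benjamini-Hochberg, and a call was an adjusted p under 0.05. The fits were tested on simulated data. Pairs of members were compared by exact sign-flip tests over lysates. DESeq2 1.42.0 was an alternative. Wilson intervals cover counting error only.

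The members and the 5 gene lists were chosen with earlier results of these data known. All members are named, and of each list up to 4 called genes with the smallest adjusted p for footprints over input. Likeness named the 6 highest r, leaving unnamed RIKEN clones, predicted genes and pseudogenes. Footprint and input libraries are paired because the labels' protocols make them from the same lysate. The correlation of their deviations from the material means was 0.12 to 0.599, and in 3 of 9 lysates the partner was the best match. Sequences came from RefSeq (GRCm38.p6, all 5 members matched) and GENCODE M21.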

Additional observations from a re-analysis of the deposited data

Results flagged for a closer look

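Of 35 checks for a sample far from the rest of its group, 8 raised a flag, where chance alone gives about 1 in 20, and all 8 concern T positions per read. In the 60 min footprint library of experiment 1 the reads of Hist1h1a held 5.02 T positions each, those of Hist1h1b 5.34, those of Hist1h1c 3.94 and those of Hist1h1e 2.77, each above the other 8 footprint libraries. Reads of all genes held 6.87 T positions in that library, the highest of the 9. In the 20 min input library of experiment 1 the reads of Hist1h1b held 4.68, those of Hist1h1d 2.98 and those of Hist1h1e 2.62 T positions, each above the other 8 input libraries. In the 40 min input library of experiment 2 the reads of Hist1h1a held 4.26, below the other 8.

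The ratio of footprints over input differed between experiment 2 and experiment 1 by a test of the difference itself for Hist1h1a (log2 difference 0.50), Hist1h1c (0.55) and Hist1h1d (0.50), each higher in experiment 2. The calls of Hist1h1c and Hist1h1d were lost when certain single lysates were left out, as given above.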

How the results depend on the processing

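Leaving out one lysate at a time gave 4 to 5 members called for footprints over input, 3 to 4 for conversion in footprints over input, 5 throughout for relative labelling, 4 to 5 for input and 1 to 3 for footprints between experiments, 1 to 3 for the difference in ratio, 0 throughout for conversion relative to the median gene and for the slopes and the ratio over hours, and 9 to 10 labelling pairs and 6 to 8 ratio pairs. Of 230 slope values of single members under the alternatives 0 were called and 42 turned sign. Of 75 other counts, 66 stayed within 1.5 times. Conversion in footprints over input had 2 members called in experiment 1 alone and 2 by limma, and relative labelling 2 by reads with at least 2 conversions. Footprints between experiments had 2 called with DESeq2 size factors, 2 by DESeq2's Wald test and 2 without mitochondrially encoded genes. Conversion relative to the median gene had 1 with at least 200 reads and 1 with a pseudocount of 2. Labelling pairs had 0 in experiment 1 alone, where 5 lysates cannot pass the call. The causes of the other shifts were not tested.

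Signs turned for Hist1h1c in conversion, footprints over input, in experiment 1 alone (0.10), and for Hist1h1b relative to the median gene by reads with at least 2 conversions (-0.067), in experiment 1 alone (-0.000539) and at 60 to 120 min (-0.038). Per T position they turned for the labelling of Hist1h1a minus Hist1h1c (-0.23), Hist1h1d (-0.40) and Hist1h1e (-0.47), of Hist1h1b minus Hist1h1d (-0.094) and Hist1h1e (-0.16), and of Hist1h1d minus Hist1h1e (-0.071). With only reads that hold a T, Hist1h1c minus Hist1h1e was 0.026. With single lysates left out, Hist1h1c differed between experiments in footprints by -0.21 (without the 20 min lysate of experiment 2) to 0.056 (without its 30 min lysate), and the ratio of Hist1h1b minus Hist1h1d was -0.044 (without the 60 min lysate of experiment 1) to 0.069 (without the 40 min lysate of experiment 2). With the lysate as a replicate block 5 members were called for footprints over input, Hist1h1a at 0.25 (adjusted p = 0.014), and with the experiment as a replicate block likewise (0.25, adjusted p = 0.0101). No replicate block changed another call of a member. Hist1h1a was also called with DESeq2 size factors (0.28, adjusted p = 0.0441) and in experiment 2 alone (0.57, adjusted p = 0.000232). Experiment 2 alone and the comparison with the median gene were chosen after seeing the data. Depth limits single shares at early times, which rest on few converted reads in input of experiment 1.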
